A study of Mus musculus with 18 samples.

Results

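The question addressed here is which mRNAs entered small extracellular vesicles (sEVs) to a different extent in astrocytes and in microglia. For each gene the sEV effect was the level in sEVs minus the level in the source cells, on the scale of log2(normalized count + 1). The packaging difference was the astrocyte sEV effect minus the microglia sEV effect, so a positive value means that a transcript stood higher in sEVs, relative to its cells, in astrocytes than in microglia. Genes were chosen by their level in cells, where the mean of the 3 cell libraries was at least 100 normalized counts in astrocytes and also in microglia. The choice gave 8826 of the 54307 genes in the table, 16.3% of the table and 45.0% of the 19612 genes tested. The cell levels that chose the genes also enter the difference as the subtracted terms, while neither the size nor the sign of the difference was used to choose them. Just inside the limit stood Nek2, with a mean of 100.02 in microglia cells, and just outside it Ift140, with 99.97.

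The groups were sEVs from primary mouse astrocyte cultures and the astrocytes themselves, and sEVs from primary mouse microglia cultures and the microglia themselves, with 3 libraries in each. Neuron cultures gave another 3 sEV and 3 cell libraries, which took no part in the choice of genes. The labels name brain as the tissue and primary culture as the source, and give no strain, age or treatment. Nothing in them says that replicates came from separate cultures or animals, so p-values measure only the spread between these libraries, which may be technical. RNA of sEVs and of their source cells was purified on columns of different size, primed at poly(A) tails and amplified with 15 PCR cycles.

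sEVs are membrane particles that cells release, partly by fusion of multivesicular endosomes with the plasma membrane and partly by budding from it. They carry proteins and RNA of the source cell, and the RNA they carry need not be a proportional sample of the cytoplasm. Transcripts in the cytosol, on free ribosomes, bound to the endoplasmic reticulum (ER) or held in the nucleus are in different places when vesicles form. Astrocytes support synapses and metabolism and secrete matrix and cholesterol, and microglia are the resident phagocytes of the brain.

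The labelled cell types were checked against marker genes. The summed level of 16 astrocyte markers was 509815 to 789127 in astrocyte sEVs and 1003346 to 1253709.5 in astrocyte cells, against 10505 to 12054 in microglia sEVs and 7020.5 to 18206 in microglia cells. Gfap made up most of the astrocyte sEV sum, with a mean of 459957, against 407058 in astrocyte cells. Aqp4 averaged 7333 in astrocyte sEVs and 125026 in astrocyte cells, and Gja1 5520 and 221674. Slc1a3 averaged 5785 and 192654, and Aldh1l1 6451 and 10857, likewise lower in the sEVs. The sum of 20 microglia markers was 157 to 2451 in astrocyte sEVs and 2842 to 5900.2 in astrocyte cells, against 389611 to 486883 in microglia sEVs and 1044554.5 to 1161312 in microglia cells. Each marker set thus stood far higher in its own type, although Gjb6 of the astrocyte markers was listed at 0 in all 3 astrocyte sEV libraries and Tmem119 of the microglia markers in all 3 microglia sEV libraries. Markers of the oligodendrocyte lineage summed to 94637 to 197585 in astrocyte sEVs and 276898 to 495538 in astrocyte cells, against 2540 to 4189 in microglia sEVs and 5036 to 5671 in microglia cells. Neuron markers summed to 10699 to 14845 in astrocyte sEVs and 15048 to 20093 in astrocyte cells. They summed to 913 to 3465 in microglia sEVs and 276 to 455 in microglia cells, where sEVs stood above cells. In such bulk samples fewer cells of a type and less RNA per cell cannot be told apart. The part of these other cells in the differences was not tested.

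The libraries differed in how many transcripts they detected. Levels of at least 10 were found for 11470 to 13962 genes in astrocyte sEVs and 15700 to 16094 in astrocyte cells, and for 7840 to 10059 genes in microglia sEVs and 13494 to 13804 in microglia cells. Of the 8826 genes, the astrocyte sEV libraries listed 1.57 to 7.89% at 0 and the microglia sEV libraries 11.4 to 24.5%, the most in microglia sEV replicate 1. Reads per library are unknown from these normalized values.

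Transcripts called higher in the packaging difference outnumbered those called lower. In a limma fit with Benjamini-Hochberg adjustment over all genes tested, 910 of the 8826 genes were called higher at an adjusted p under 0.05 and 321 lower, 10.3 and 3.64%. Over all 19612 genes tested the shares called were 8.77% higher and 4.53% lower, 13.3% in either direction. The median difference was 0.42 over the 8826 genes (quartiles -0.55 and 2.34), and 0.20 over all genes tested. In 1156 of the 1231 called genes the 9 astrocyte differences between single sEV and cell libraries did not overlap the 9 microglia ones. The same libraries gave the calls, so this adds no support to them, and the share over all genes is not given here. The balance of directions depended on how libraries were scaled, with 682 higher and 774 lower calls at equal library totals, 802 and 523 under quantile normalization and 788 and 484 with the sEV effect of each type centred on its median gene. Library weights left 885 higher and 156 lower, and a fit with the replicate number as a block within each type 714 and 183. Without microglia sEV replicate 3, 1391 genes were called higher and 389 lower, and without microglia sEV replicate 1, 1126 and 424, with a median difference of 0.15.

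Most of the excess of higher calls lay with genes listed at 0 in some sEV library. Among the 5881 genes above 0 in all 6 astrocyte and microglia sEV libraries, 463 were called higher and 298 lower, with a median difference of -0.01. The other 2945 genes had a median of 2.96, with 447 called higher and 23 lower. For these genes a log2 value depends on the pseudocount, and the 0s were more frequent in the microglia sEV libraries that detected fewer genes. Setting them apart uses sEV values that enter the difference, and can lower the median by itself. The largest differences below are therefore those of transcripts above 0 in all 6 sEV libraries, and transcripts listed at 0 are described apart. Some of the former, such as Hivep2, Enah and Tmem245, had very low levels in some microglia sEV libraries. The size of their differences also depends on the pseudocount.

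The median sEV effect of the 5881 genes was -0.01 in astrocytes and -0.08 in microglia. A positive difference could arise in several ways, and the plot shows the signs of both fitted sEV effects. Of the 463 genes called higher, 273 had a positive effect in astrocytes and a negative one in microglia, 154 were positive in both types and 36 negative in both. Of the 298 called lower, 140 were negative in astrocytes and positive in microglia, 139 were negative in both and 19 positive in both. Opposite signs were thus found in 273 of the higher and 140 of the lower genes. These are signs of fitted values, whether or not either sEV effect was itself called. Choosing genes by the difference of the same effects favours opposite signs, so the counts add no support to the calls. The share with opposite signs over all 5881 genes is not given here.

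**Figure D1:**
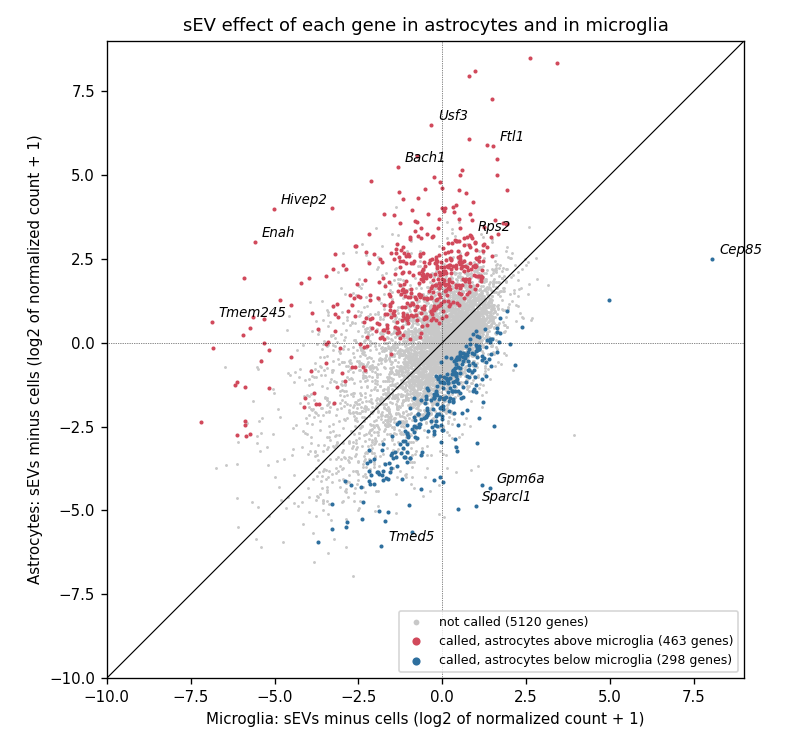
sEVs minus cells in astrocytes (vertical axis) against the same in microglia (horizontal axis), in log2 units, 1 point for each of the 5881 genes above 0 in all 6 sEV libraries. The 463 genes called higher lie above the diagonal of equal effects and the 298 called lower lie below it, with Cep85 far to the right.

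Among the genes above 0 in all 6 sEV libraries and called higher, the 10 largest positive differences ranged from 6.32 to 8.999. Hivep2, a zinc finger transcription factor, had 3035, 4979 and 2657 in astrocyte sEVs, against 209, 125 and 392 in astrocyte cells. It had 11.5, 8.71 and 273 in microglia sEVs, against 1099, 1185 and 886 in microglia cells. Astrocyte sEVs were thus far above their cells and microglia sEVs below theirs in every library, with a difference of 8.999 ± 1.28 (SE; limma adjusted p = 0.000188). Enah, an actin regulator of the Ena/VASP family, had 23555, 45945 and 24354 in astrocyte sEVs, against 3503, 4614 and 3160.5 in astrocyte cells. In microglia it had 0.885, 25.6 and 1.8 in microglia sEVs, against 350.1, 219 and 196 in microglia cells. This transcript was at 3.003 in astrocytes and -5.58 in microglia on the log2 scale, a difference of 8.58 ± 0.98 (limma adjusted p = 2.36e-05).

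Usf3, a basic helix-loop-helix transcription factor, had 15893, 29503 and 12715 in astrocyte sEVs, against 190.2, 262 and 166 in astrocyte cells. Its levels were 784, 14 and 551 in microglia sEVs, against 205, 391 and 159 in microglia cells. All 3 astrocyte sEV libraries stood above all cells, while the microglia sEV libraries scattered around theirs, and the difference was 6.81 ± 1.46 (limma adjusted p = 0.00543). Bach1, a haem-sensitive repressor of transcription, had 5635, 11957 and 5878 in astrocyte sEVs, against 348, 202 and 105 in astrocyte cells. Microglia gave 1812, 456 and 395 in microglia sEVs, against 1910.2, 1802 and 1445 in microglia cells. Here the gain in astrocyte sEVs (5.23) made up most of the difference of 6.54 ± 0.82 (limma adjusted p = 5.84e-05), since microglia sEVs were at -1.31.

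Tsc22d2, of a family of leucine zipper regulators, followed the same course, with 16702, 24312 and 13433 in astrocyte sEVs, against 389, 378 and 353 in astrocyte cells. It had 107, 1657 and 255 in microglia sEVs, against 763, 588 and 499 in microglia cells. The difference was 6.32 ± 0.98 (limma adjusted p = 0.000408). Pakap, a symbol that the table gives to more than 1 gene and that here stands for ENSMUSG00000038729.25, had 5247, 20341 and 7932 in astrocyte sEVs, against 445, 426 and 1029 in astrocyte cells. Its microglia levels were 204, 241 and 199 in microglia sEVs, against 989, 2195 and 4128 in microglia cells, which left no overlap between sEVs and cells in either type, and the difference was 7.30 ± 0.80 (limma adjusted p = 1.66e-05).

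Other transcripts reached a large positive difference through a low level in microglia sEVs. Tmem245, a membrane protein, had 2606, 5262 and 2069 in astrocyte sEVs, against 1664, 1496 and 3098 in astrocyte cells. In microglia it had 33, 8.89 and 1.2 in microglia sEVs, against 1142, 988 and 1018 in microglia cells. Astrocyte sEVs and cells overlapped, whereas microglia sEVs were far below their cells, so the difference of 7.48 ± 1.001 (limma adjusted p = 0.000105) came with sEV effects of 0.63 in astrocytes and -6.86 in microglia. Camk1d, a calcium/calmodulin-dependent kinase, differed by 7.85 ± 1.76, S1pr2, a sphingosine-1-phosphate receptor, by 6.68 ± 1.64, and Zfp871, a zinc finger protein, by 6.41 ± 1.63. S1pr2 and Zfp871 were no longer called when only the 12 astrocyte and microglia libraries were fitted (limma adjusted p = 0.0523 and 0.0637).

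**Figure D2:**
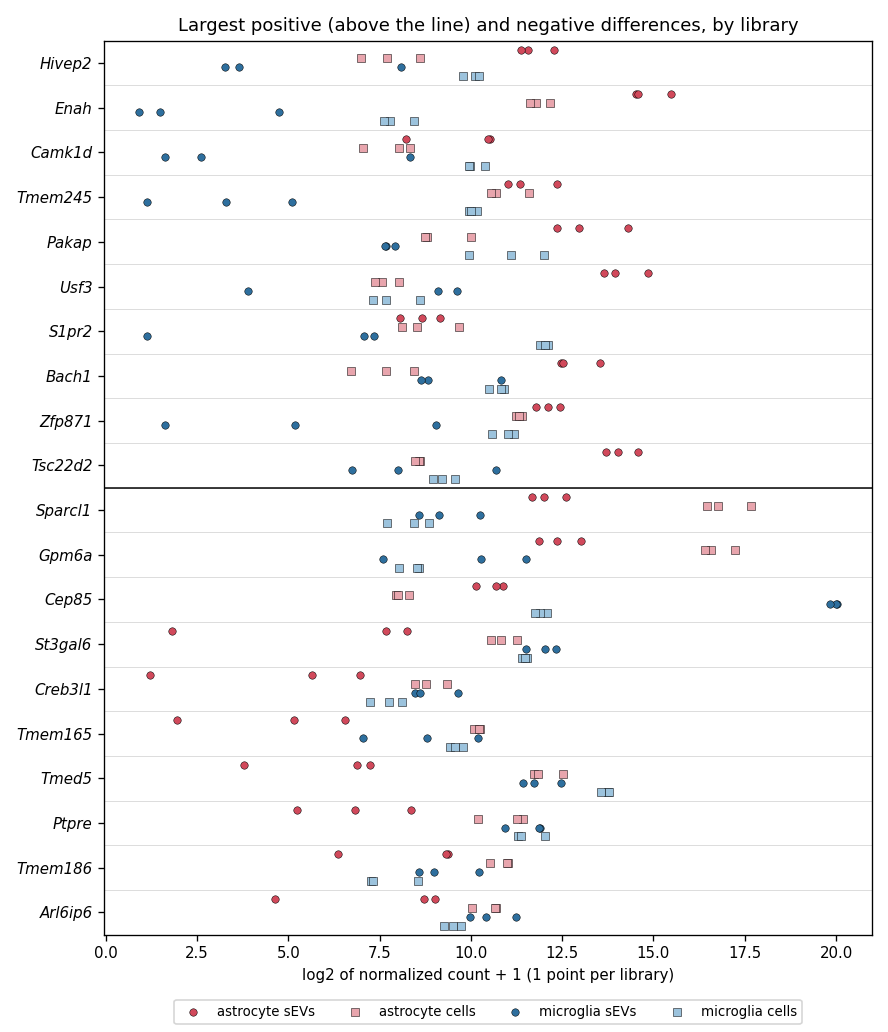
Level in each of the 12 libraries, as log2(normalized count + 1), for the 10 genes with the largest positive differences (above the line) and the 10 with the largest negative ones (below it). Circles are sEVs and squares cells, in red for astrocytes and blue for microglia. The red circles of Usf3, Bach1 and Tsc22d2 stand right of all other points, and the blue circles of Cep85 stand right of all other points.

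Sparcl1 and Gpm6a had the most negative differences. Sparcl1, a secreted protein that astrocytes use to promote synapses, had 4117, 6203 and 3271 in astrocyte sEVs, against 112093, 90631 and 207925 in astrocyte cells. Microglia had 379, 559 and 1221 in microglia sEVs, against 462, 208 and 344 in microglia cells. Astrocyte sEVs thus held far less than their cells, while microglia, with low levels throughout, showed no loss in sEVs, a difference of -5.86 ± 0.61 (limma adjusted p = 9.72e-06). Gpm6a, a membrane glycoprotein, had 5245, 8314 and 3701 in astrocyte sEVs, against 97674, 87957 and 155007 in astrocyte cells. It had 194, 1241 and 2942 in microglia sEVs, against 262, 384 and 364 in microglia cells. Its difference was -5.76 ± 0.95 (limma adjusted p = 0.000664). Both transcripts were far lower in microglia than in astrocyte cells, beside the astrocyte and neuron marker sums given above. Whether RNA from astrocytes or neurons in the microglia cultures entered these values was not tested.

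Cep85, which encodes a centrosomal protein, was an exception in kind. It had 1138, 1874 and 1647 in astrocyte sEVs, against 246, 317 and 258 in astrocyte cells. In microglia it had 1066830.2, 1053358 and 943197 in microglia sEVs, against 4339, 3834 and 3429.6 in microglia cells, so that this gene alone made up 1.72 to 1.98% of the total of each microglia sEV library. Transcripts of Cep85 were above their cells in the sEVs of both types, by 2.48 in astrocytes and 8.05 in microglia, a difference of -5.57 ± 0.37 (limma adjusted p = 2.88e-07). Neurons had 4429, 4267 and 8631 in neuron sEVs, against 282, 226 and 292 in neuron cells, also with sEVs above cells in every library.

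Of the other 7 of the 10 most negative, Tmed5, of the p24 family of cargo receptors, had 12.9, 116 and 149 in astrocyte sEVs, against 3416, 3630.1 and 5932 in astrocyte cells. Microglia gave 3393, 5621 and 2773 in microglia sEVs, against 13765, 14019 and 12043 in microglia cells. sEVs were below cells in each type and further below in astrocytes, a difference of -4.25 ± 0.93 (limma adjusted p = 0.00629). Ptpre, a receptor-type tyrosine phosphatase, had 329, 112 and 36.8 in astrocyte sEVs, against 2752, 2464 and 1179 in astrocyte cells. It had 1959, 3806 and 3760.5 in microglia sEVs, against 2487, 4174 and 2636 in microglia cells. Astrocyte sEVs were below their cells in every library, while microglia sEVs and cells overlapped, with a difference of -4.17 ± 0.85 (limma adjusted p = 0.00375). Tmem186, a protein that helps to assemble respiratory complex I, differed by -4.03 ± 0.99 (limma adjusted p = 0.013).

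St3gal6, a sialyltransferase of the Golgi, had 2.52, 203 and 305 in astrocyte sEVs, against 1811, 1496 and 2469 in astrocyte cells. It had 4158, 2941 and 5112 in microglia sEVs, against 2689, 2985 and 2886 in microglia cells, which overlapped, and the difference was -5.44 ± 1.63 (limma adjusted p = 0.0389). Creb3l1, a transcription factor anchored in the ER membrane, differed by -5.44 ± 1.58, Tmem165, a Golgi protein needed for glycosylation, by -4.72 ± 1.33, and Arl6ip6, a membrane protein, by -4.03 ± 1.20. Each of these 4 had 1 astrocyte sEV library much lower than the other 2, and each lost its call when any single cell library or microglia sEV replicate 1 was left out, with limma adjusted p from 0.0511 to 0.0820 and differences between -5.65 and -3.68 (St3gal6 also without microglia sEV replicate 3, limma adjusted p = 0.0589).

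Many transcripts were listed at 0 in all 3 sEV libraries of a single type. Of the 404 genes listed at 0 in all microglia sEV libraries, 222 were called higher and were present in astrocyte sEVs, and of the 67 listed at 0 in all astrocyte sEV libraries 7 were called lower and were present in microglia sEVs. Of these genes 36 were listed at 0 in all 6, where the difference holds cell levels only. Among those listed at 0 in microglia sEVs was Timp3, an inhibitor of matrix metalloproteinases, which had 1184, 3868 and 2187 in astrocyte sEVs, against 17249.8, 16497 and 26750.0 in astrocyte cells. Microglia cells held 572, 4598 and 9451 of it, and sEVs were below cells in each type. Ccn1, a secreted matrix protein, had 407, 2939.9 and 1129 in astrocyte sEVs, against 10835, 12547 and 22289 in astrocyte cells, with 389.8, 3436 and 4308 in microglia cells. Fibroblast and meningeal markers summed to 303 to 584 in astrocyte sEVs and 4188 to 11662 in astrocyte cells, against 0 to 258 in microglia sEVs and 418 to 15419.9 in microglia cells, and their part in these values was not tested. Acsbg1, an acyl-CoA synthetase, Mlc1, an astrocyte membrane protein, and Igfbp5, a binding protein of insulin-like growth factors, were also listed at 0 in all microglia sEV libraries, and Mlc1 and Igfbp5 lost their calls with a pseudocount of 10 and under quantile normalization.

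In the other direction, Cd36, a scavenger receptor, was listed at 0 in all 3 astrocyte sEV libraries, with 188, 179 and 383 in astrocyte cells. It had 25111, 16144 and 17375 in microglia sEVs, against 120964, 149308 and 126336 in microglia cells, below the cells in every library but present. Tlr3, a receptor of double-stranded RNA, was likewise listed at 0 in astrocyte sEVs, with 1225, 1546 and 3461 in astrocyte cells, and it had 911, 814 and 817 in microglia sEVs, against 10772, 13804 and 11689 in microglia cells. Rnase4, a secreted ribonuclease, and Cd38, an enzyme that consumes NAD, were also listed at 0 in all astrocyte sEV libraries. Rnase4 was no longer called without replicate 1 of the astrocyte or of the microglia cells (limma adjusted p = 0.0543 and 0.0567), and Tlr3, Rnase4 and Cd38 were not called with library weights. Rnase4 and Cd38 were also not called with a pseudocount of 10.

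For the counts of calls in gene lists from here on, the shares over all 8826 genes were 10.3% higher and 3.64% lower. Most transcripts of ribosomal proteins stood higher in sEVs than in cells in each type. Of 80 cytosolic ribosomal protein genes, 20 were called higher and 0 lower (27 and 3 at an unadjusted limma p under 0.05), with a median difference of 0.28, which turned to -0.20 with 11 higher and 3 lower when libraries were scaled to equal totals. In sEVs against cells, 72 of the 80 were called higher in astrocytes and 76 in microglia (backgrounds 8% and 5.08%), with median sEV effects of 1.33 in astrocytes and 1.06 in microglia. Rps2, of the small subunit, had 99952, 99714 and 103658 in astrocyte sEVs, against 13884, 11539.9 and 8731 in astrocyte cells. Its microglia levels were 27027, 23595 and 24434 in microglia sEVs, against 15377, 13667 and 12933 in microglia cells. The gain was thus in both types and larger in astrocytes, by 2.34 ± 0.22 (limma adjusted p = 4.67e-06). Rpl9, of the large subunit, had 41261, 44274 and 46104 in astrocyte sEVs, against 7276, 7827 and 5885 in astrocyte cells, and 14117, 13943 and 12412 in microglia sEVs, against 8526, 7650.4 and 8254 in microglia cells, a difference of 1.93 ± 0.15 (limma adjusted p = 8.51e-07). Rplp0 differed by 1.52 ± 0.13 and Rpl4 by 1.21 ± 0.13.

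Of 48 translation factors, 8 were called higher and 2 lower, with 3 of the 6 elongation factors among the higher. Eef2, which moves the ribosome along the mRNA, had 57611, 76044 and 85126 in astrocyte sEVs, against 14860.0, 15437 and 12913 in astrocyte cells. It had 21469, 27231 and 21890.1 in microglia sEVs, against 17513, 16895 and 18770.1 in microglia cells. The difference was 1.92 ± 0.22 (limma adjusted p = 1.98e-05), with no overlap of sEVs and cells in either type. Eef1a1, which delivers aminoacyl-tRNA, differed by 1.54 ± 0.13, its partner subunit Eef1g by 1.30 ± 0.14, and the initiation factor Eif4b by 2.12 ± 0.34. The median of all 48 factors was 0.07 and was below 0 under quantile normalization (-0.05), when the effects of each type were centred on the median gene (-0.12) and at equal totals (-0.41), where 6 were higher and 7 lower. Ribosomal proteins, ferritins and Eef1a1 have many near-identical processed pseudogenes, between which estimated counts can be split, and their levels are uncertain to that extent. None of the 21 aminoacyl-tRNA synthetase genes was called in limma (1 higher and 3 lower at an unadjusted p under 0.05), while 2 were called lower at equal totals.

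Of 46 RNA-binding proteins 5 were called higher, near the 10.3% of all 8826 genes, and 4 lower, against 3.64% of all. Pabpc1, the cytoplasmic poly(A)-binding protein, had 51886, 50566 and 61091 in astrocyte sEVs, against 11751, 12324 and 10484 in astrocyte cells. In microglia it had 39306, 69949 and 55232 in microglia sEVs, against 52798, 49179 and 53101 in microglia cells. Only the astrocyte sEVs stood apart from their cells, and the difference was 2.19 ± 0.21 (limma adjusted p = 5.18e-06). Ago2, the effector of microRNA silencing, had 9855, 16783 and 10058 in astrocyte sEVs, against 647, 744 and 664 in astrocyte cells. Microglia levels were 2633, 424 and 1424 in microglia sEVs, against 1021, 833 and 780.0 in microglia cells, which overlapped between sEVs and cells, and the difference was 3.69 ± 0.65 (limma adjusted p = 0.00122). The stress granule protein G3bp1 differed by 1.76 ± 0.33, and the RNA helicase Ddx5 by -0.81 ± 0.15.

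Nuclear genes of oxidative phosphorylation were mostly on the negative side, and 17 of 78 were called lower and 3 higher, with a median difference of -0.68 that was negative under every scaling tried. Complex I, which takes electrons from NADH, held 12 of the 17 among its 37 members, complex IV 3 among 11, and complexes II and III 1 each. The median sEV effects of complex I were 0.12 in astrocytes and 0.90 in microglia. Ndufb11, an accessory subunit of complex I, had 8874, 8259.6 and 8808 in astrocyte sEVs, against 9404, 8967 and 12406 in astrocyte cells. It had 6342, 5665 and 4817 in microglia sEVs, against 2655, 2723 and 2813 in microglia cells. Astrocyte sEVs were slightly below their cells and microglia sEVs were above their cells in every library, a difference of -1.26 ± 0.23 (limma adjusted p = 0.00161).

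Cox6a1, a subunit of complex IV, had 5331, 4108 and 4987 in astrocyte sEVs, against 15095, 14176 and 19050.0 in astrocyte cells. Its microglia levels were 8811, 10058 and 9376 in microglia sEVs, against 8770.2, 7905 and 8062 in microglia cells. Here the astrocyte sEVs were far below their cells and the microglia sEVs slightly above theirs, with a difference of -1.93 ± 0.25 (limma adjusted p = 7.82e-05). Cox7a2l, which takes part in the assembly of respiratory supercomplexes, went the other way, by 1.47 ± 0.20, as did the ATP synthase subunit Atp5a1, by 1.04 ± 0.17 (not called at equal totals, limma adjusted p = 0.0742). The count of lower calls depended on the setting, with 43 under equal totals, 33 when the effects of each type were centred on the median gene and 4 with library weights.

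Of 78 mitochondrial ribosomal proteins 6 were called lower and 1 higher, with a median of -0.48 (2 to 15 lower over the other scalings and library weights). Mrps7 differed by -1.20 ± 0.29, Mrpl42 by -0.99 ± 0.22 and Mrpl30, the only gene called higher, by 0.91 ± 0.22. Mrpl30 was not called at equal totals, and Mrpl42 and Mrpl30 were not called with library weights. Of 32 mitochondrial import genes 1 was called lower, the outer membrane receptor Tomm20 (-0.94 ± 0.22; not called with library weights, limma adjusted p = 0.0511), and none higher in limma (1 higher and 4 lower at an unadjusted p under 0.05). None of the 14 mitochondrially encoded genes was called in limma (1 higher and 0 lower at an unadjusted p under 0.05). In sEVs against cells 12 of the 14 were called lower in astrocytes and 13 in microglia (backgrounds 18.6% and 21.2%), with median sEV effects of -4.22 in astrocytes and -3.68 in microglia.

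Genes of the early secretory pathway were called lower more often than higher. Of 28 genes of ER translocation and N-glycosylation 6 were called lower and 0 higher in limma (9 and 1 at an unadjusted p under 0.05), among them 3 of the 5 signal peptidase subunits. Spcs2, of the signal peptidase that trims nascent secretory proteins, had 4582, 4436 and 3603 in astrocyte sEVs, against 36398, 39655 and 43232 in astrocyte cells. It had 16141, 13724 and 16419 in microglia sEVs, against 20827, 24484 and 24559 in microglia cells. sEVs were below cells in each type without overlap, and further below in astrocytes, by -2.65 ± 0.16 (limma adjusted p = 1.55e-07). Ddost, of the oligosaccharyltransferase, had 1572, 1515 and 1435 in astrocyte sEVs, against 16722, 17249 and 22066 in astrocyte cells. Its levels were 5629.7, 3951 and 4567 in microglia sEVs, against 13494, 15346 and 16869 in microglia cells, again with both sEV groups below their cells and a difference of -1.92 ± 0.24 (limma adjusted p = 4.83e-05). The signal peptidase subunit Spcs1 differed by -1.56 ± 0.20 and the translocon subunit Sec62 by -1.96 ± 0.38. Over the other scalings and library weights the list had 5 to 12 lower calls.

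Of 48 trafficking genes of the COPI and COPII coats, their cargo receptors and SNAREs, 6 were called lower and 2 higher. The cargo receptor Tmed10 had 1979.8, 3443 and 2650.3 in astrocyte sEVs, against 18879, 20156 and 24883 in astrocyte cells. It had 20748, 14048 and 17212 in microglia sEVs, against 35199, 44554 and 45294 in microglia cells, and the difference was -1.74 ± 0.27 (limma adjusted p = 0.000352). Sar1b, the GTPase that starts COPII coats, differed by -1.88 ± 0.30 and the Golgi GTPase Arf4 by -0.92 ± 0.15, while the SNARE Ykt6 differed by 1.76 ± 0.38. Over the other scalings and library weights the trafficking list had 4 to 12 called lower. Chaperones had 4 of 44 called lower and 0 higher in limma (13 and 2 at an unadjusted p under 0.05), with 13 lower under quantile normalization, 14 at equal totals and 2 with library weights. Hspa8, the constitutive cytosolic Hsp70, had 56139, 56407 and 56256 in astrocyte sEVs, against 118735, 140264 and 119307 in astrocyte cells. It had 181150.1, 172950.3 and 190183 in microglia sEVs, against 170836, 169375 and 197509 in microglia cells, which overlapped, so only the astrocyte sEVs were below their cells, with a difference of -1.18 ± 0.12 (limma adjusted p = 8.19e-06). The ER disulfide isomerase Pdia3 differed by -1.53 ± 0.28.

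Lysosomal genes were lower in the sEVs than in the cells of each type. Of 53 genes, 41 were called lower in astrocyte sEVs and 39 in microglia sEVs (backgrounds 18.6% and 21.2%). They had median sEV effects of -4.09 in astrocytes and -3.40 in microglia, and 6 were called lower in the difference and 2 higher (4 to 11 lower over the other scalings and library weights). Cd63, a tetraspanin of late endosomes and itself a protein marker of sEVs, had 6154, 8840.0 and 5470.2 in astrocyte sEVs, against 84390.1, 79307 and 135853 in astrocyte cells. Microglia gave 52868, 38176 and 39876 in microglia sEVs, against 118063, 138426 and 127159 in microglia cells. Its mRNA was thus below the cells in each type and more so in astrocytes, by -2.30 ± 0.35 (limma adjusted p = 0.000348). Laptm4a, a lysosomal membrane protein, differed by -1.90 ± 0.32. The 2 called higher, Npc1, which exports cholesterol from lysosomes, and the cystine transporter Ctns, were listed at 0 in all microglia sEV libraries.

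Of 15 tetraspanins 4 were called lower and 1 higher. Besides Cd63 and Cd81 these were Tspan3, with 1725, 7054 and 2408 in astrocyte sEVs, against 91033, 83339 and 137812 in astrocyte cells, and 3869.6, 3704 and 5546 in microglia sEVs, against 11213, 14934 and 14128 in microglia cells, a difference of -3.41 ± 0.52 (limma adjusted p = 0.000353), and Tspan31, at -2.06 ± 0.42. Tspan9, the gene called higher, was listed at 0 in microglia sEVs. Of 17 subunits of the vacuolar ATPase, the proton pump of these compartments, 3 were called lower and 1 higher. Atp6v0c of the membrane sector had 910.5, 2466 and 1672 in astrocyte sEVs, against 19499.9, 18198 and 24958 in astrocyte cells. It had 11918, 14796 and 16442 in microglia sEVs, against 38257, 44634 and 40237 in microglia cells, a difference of -2.21 ± 0.39 (limma adjusted p = 0.00117). Atp6v1b2 of the cytosolic sector had 27293, 29314 and 29199 in astrocyte sEVs, against 12049, 15222 and 12429.8 in astrocyte cells. Its microglia levels were 45049, 45345 and 46851 in microglia sEVs, against 49671, 45195 and 48618 in microglia cells, where sEVs and cells overlapped, and the difference was 1.18 ± 0.18 (limma adjusted p = 0.000278). Genes of the ESCRT and ALIX-syntenin machinery, which buds vesicles into endosomes, had 2 of 40 called higher and 0 lower in limma (6 and 4 at an unadjusted p under 0.05), with Chmp1a at 1.27 ± 0.25 (not called at equal totals, limma adjusted p = 0.0588). At equal totals 1 ESCRT and ALIX-syntenin gene was called higher and 5 lower.

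Ferritin stood out by its level. Ftl1, the light chain of the iron store, made up 12.3, 22.04 and 14.0% of the total of the astrocyte sEV libraries, against 0.280, 0.286 and 0.345% in astrocyte cells. It made up 4.61, 3.95 and 5.002% in microglia sEVs, against 1.41, 1.12 and 1.30% in microglia cells. sEVs were above cells in every library of each type, and the gain was larger in astrocytes by 4.35 ± 0.35 (limma adjusted p = 1.05e-06). Fth1, the heavy chain, had 234867, 325448 and 224036 in astrocyte sEVs, against 48029.8, 43634 and 71636 in astrocyte cells. It had 997513, 842090.0 and 913276 in microglia sEVs, against 531855, 470489 and 472611 in microglia cells, a difference of 1.38 ± 0.23 (limma adjusted p = 0.000698). Of 12 genes of iron handling these 2 were called higher and Hmox1, which degrades haem, lower (-1.55 ± 0.42; not called without astrocyte cell replicate 3 or microglia cell replicate 2 or 3, limma adjusted p = 0.0538 to 0.0664).

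Among 30 antioxidant enzymes 3 were called higher and 1 lower, near the shares of all 8826 genes (10.3% and 3.64%), but 1 higher and 3 lower at equal totals. Of those called higher, Prdx4 lost its call in 4 of the 12 fits that left out 1 library and Glrx3 in 6. Glrx3 was also not called under any other scaling tried or with library weights. Prdx4 was also not called at equal totals, under quantile normalization, with the replicate block or when only the 12 astrocyte and microglia libraries were fitted. Srxn1, which repairs peroxiredoxins, had 4621, 6081 and 5925 in astrocyte sEVs, against 334, 347 and 682 in astrocyte cells. It had 582, 1555 and 1301 in microglia sEVs, against 655, 931 and 686 in microglia cells, overlapping between sEVs and cells, and the difference was 3.18 ± 0.56 (limma adjusted p = 0.00118). Sod2, the mitochondrial superoxide dismutase, had 5510.0, 4817 and 7295 in astrocyte sEVs, against 7362, 7316 and 7424 in astrocyte cells. Its microglia levels were 186444, 190914 and 177868 in microglia sEVs, against 118599.8, 117776 and 112136 in microglia cells, with sEVs above cells in every library, so that it was lower in the difference by -1.02 ± 0.17 (limma adjusted p = 0.000746).

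Of 28 genes of the cell cycle 4 were called higher and 0 lower in limma (7 and 1 at an unadjusted p under 0.05), against 10.3% and 3.64% of all 8826 genes. Ccnd1, 1 of the 4, lost its call in 8 of the 12 fits that left out 1 library. It was also not called under any other scaling tried or with library weights. Cdkn1a, the cyclin-dependent kinase inhibitor p21, had 22471, 27843 and 22199 in astrocyte sEVs, against 2427, 2194 and 3397 in astrocyte cells. In microglia it had 309706, 333019 and 323969 in microglia sEVs, against 196753, 161695 and 192543 in microglia cells. sEVs were above cells without overlap in each type, by 3.19 in astrocytes and 0.82 in microglia, a difference of 2.38 ± 0.36 (limma adjusted p = 0.000351). The kinase Cdk6 differed by 2.24 ± 0.43 and the cyclin Ccnd2 by 2.62 ± 0.68, which lost its call in a fit of the 12 libraries alone (limma adjusted p = 0.0516) and with library weights.

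Solute carriers, sterol and fatty acid genes and matrix genes had positive list medians that were not positive over the genes above 0 in all 6 sEV libraries. That choice uses sEV values that enter the difference. Since 0s lay mostly in microglia sEVs, it can lower a median by itself. The 46 solute carriers had a median difference of 1.499, with 6 called higher, but the 21 of them above 0 in all 6 sEV libraries had a median of -0.11 and none of the 6. The median of the 34 sterol and fatty acid genes was 0.89, and that of the 22 above 0 was -0.01. Elovl6, which elongates fatty acids, was listed at 0 in all microglia sEV libraries, with 2380.1, 2294 and 2227 in astrocyte sEVs, against 6211, 5866 and 5064 in astrocyte cells, and was 1 of the 3 called higher. The 37 matrix genes had a median of 1.49, against -1.54 over the 7 above 0. Quantile normalization turned the median of the sterol and fatty acid genes to -0.20 and gave 2 higher and 6 lower solute carriers.

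Immune lists held few calls. Of 31 interferon-stimulated genes 2 were called higher and 1 lower, but 1 higher and 5 lower at equal totals, 1 higher and 4 lower when effects were centred on the median gene, and 0 in either direction with library weights. Adar, an RNA-editing enzyme, had 662, 888 and 311 in astrocyte sEVs, against 203, 296 and 301 in astrocyte cells. It had 2585, 2299 and 1609 in microglia sEVs, against 8723, 5904 and 7088 in microglia cells, opposite in direction, with a difference of 2.86 ± 0.61 (limma adjusted p = 0.00505; not called with library weights). Among 19 genes of cytokines and the NF-kB response, Sod2 and the inhibitor Nfkbib (-1.42 ± 0.36) were called lower, and the interleukin receptor Il1r1, listed at 0 in microglia sEVs, was called higher. None of the 8 genes of MHC class I presentation was called in limma (0 higher and 1 lower at an unadjusted p under 0.05), while 5 were called lower under quantile normalization and 2 at equal totals. H2-D1, a class I heavy chain, had 308, 245 and 480.5 in astrocyte sEVs, against 5717, 4231 and 8339 in astrocyte cells. It had 72625, 32459.9 and 47167 in microglia sEVs, against 458053, 500649 and 439670.3 in microglia cells, which placed sEVs below cells in each type, with a difference of -0.87 ± 0.43 (limma adjusted p = 0.218).

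Of 46 genes of the spliceosome and SR proteins 8 were called lower and 1 higher, with a median of -0.47. The lower calls numbered 14 at equal totals and 2 with library weights. Srsf7, a splicing factor of the SR family, had 4159, 3889 and 4409 in astrocyte sEVs, against 13099.6, 14025 and 11643 in astrocyte cells. It had 21112, 15131 and 20394 in microglia sEVs, against 19303, 16924 and 18474 in microglia cells, where sEVs and cells overlapped, and the difference was -1.67 ± 0.26 (limma adjusted p = 0.000353). Son, a large nuclear speckle protein, was the exception, with 40183, 80951 and 33360.2 in astrocyte sEVs, against 11855, 12635 and 11249.8 in astrocyte cells. Its microglia levels were 2389, 3763 and 3425 in microglia sEVs, against 5518, 6717 and 5159.6 in microglia cells, opposite in direction, and the difference was 2.88 ± 0.39 (limma adjusted p = 0.000125). Malat1, a noncoding RNA kept in the nucleus, had 91854, 47325 and 28401 in astrocyte sEVs, against 334925, 310584 and 340525 in astrocyte cells. It had 2859, 2740.1 and 1660.1 in microglia sEVs, against 159192, 133674 and 91940.2 in microglia cells. Both sEV groups were below their cells, microglia by more, so that Malat1 was higher in the difference by 3.01 ± 0.51 (limma adjusted p = 0.000914). The other 5 nuclear noncoding RNAs were not called.

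Proteasome genes had 4 of 35 called lower and 1 higher, with the ATPase subunit Psmc2 at -1.31 ± 0.24. There were 10 lower at equal totals and 2 with library weights, and 0 higher under these or any other scaling. Psmc4, Adrm1 and Psmd6, also called lower, lost their calls when only the 12 astrocyte and microglia libraries were fitted. With 1 library left out, they lost them in 3, 6 and 9 fits, respectively. Of 37 enzymes of glycolysis and the TCA cycle 3 were called lower and 0 higher in limma (8 and 2 at an unadjusted p under 0.05), with Idh1 at -0.92 ± 0.15, and 7 lower at equal totals. Actin and tubulin genes had 1 of 51 called higher, the tropomyosin Tpm4 at 0.97 ± 0.21 (not called at equal totals, limma adjusted p = 0.166), and 2 lower, Actr3 and Tubb2a. With 1 library left out, Actr3 kept its call only without astrocyte sEV replicate 2, microglia sEV replicate 1 or microglia cell replicate 3 (limma adjusted p up to 0.104 without another library). Tubb2a kept its call only without astrocyte sEV replicate 3, astrocyte cell replicate 1, microglia sEV replicate 1 or 2 or microglia cell replicate 2 (limma adjusted p up to 0.1005 without another library). At equal totals 7 of these genes were called lower and 0 higher. Of 6 integrins Itgb8, listed at 0 in microglia sEVs, was called higher and Itgb5 lower (-2.92 ± 0.72; not called with library weights). Of 30 genes of RNA polymerase II and general transcription 2 were called lower and 0 higher in limma (8 and 1 at an unadjusted p under 0.05), with 7 lower at equal totals and 0 under quantile normalization or library weights. The 2 were Gtf2f1, not called without microglia sEV replicate 1, any astrocyte cell replicate or microglia cell replicate 1 or 2 (limma adjusted p = 0.0562 to 0.0783), and Polr2g, not called without astrocyte sEV replicate 2, astrocyte cell replicate 1 or 2, microglia sEV replicate 1 or 3 or any microglia cell replicate (limma adjusted p = 0.0531 to 0.110). Tlr3 was the only gene called among 12 Toll-like receptors and adaptors, in the lower direction. Of 10 snoRNA host transcripts Snhg17 was called higher, and not under quantile normalization (limma adjusted p = 0.128).

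**Figure D3:**
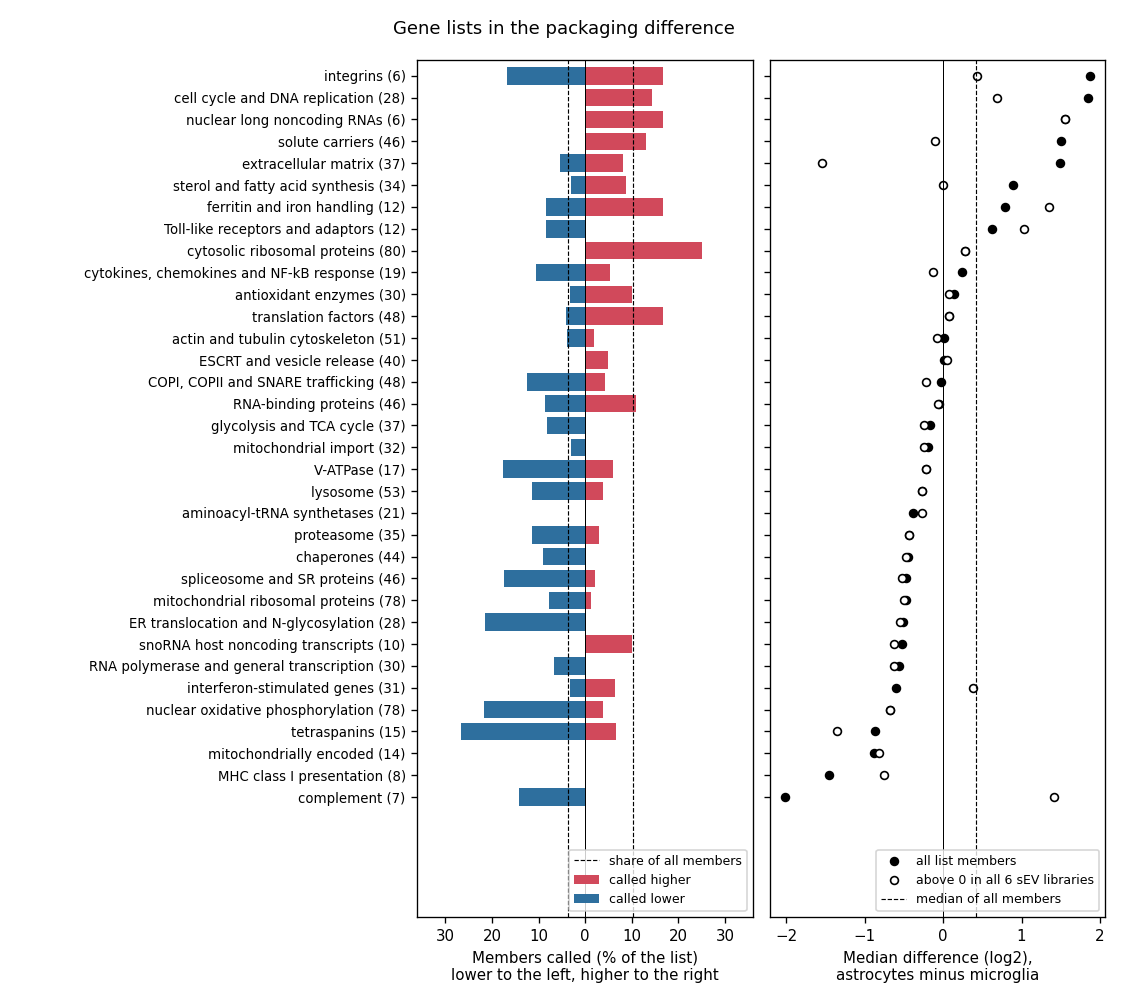
For each of 34 gene lists (number of members in brackets), the share called lower (bars to the left) and higher (bars to the right), and the median difference over all list members (filled) and over those above 0 in all 6 sEV libraries (open). Dashed lines give the shares and the median of all 8826 genes. Ribosomal proteins reach furthest right with no bar to the left, and the filled and open points part widely for matrix genes and solute carriers.

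Longer transcripts had more positive differences. The length used was that of the longest annotated transcript of a gene, found for 8820 of the 8826 genes. The 5878 of these above 0 in all 6 sEV libraries were divided by length into 5 groups of nearly equal size. From the shortest group to the longest the median difference was -0.27, -0.22, -0.06, 0.11 and 0.74. In the shortest group, up to 1820 bases, 33 genes were called higher and 77 lower, and in the longest, from 5185 bases, 221 were called higher and 24 lower.

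The median sEV effect over the same 5 groups was 0.19, -0.20, -0.16, -0.22 and 0.30 in astrocytes, with no steady course. In microglia it was 0.46, -0.06, -0.14, -0.34 and -0.43, falling with length throughout. Neurons gave 0.42, -0.33, -0.35, -0.33 and 0.25, a course like that of astrocytes. Across genes, Spearman's rho of length was 0.27 with the difference, 0.035 with the astrocyte effect and -0.27 with the microglia effect (5878 genes, which share the libraries and are not independent replicates). The 10 genes with the largest positive differences had transcripts of 5867 to 15981 bases, and the 10 with the largest negative ones 1897 to 5753 bases.

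Level in cells moved with the difference too. Over 5 groups from the lowest to the highest cell level the median was 0.33, 0.20, 0.07, -0.12 and -0.33 over the genes above 0. Over all 8826 genes it was 1.96, 1.35, 0.54, 0.12 and -0.29, while the share with a 0 in some sEV library was 69.1, 48.3, 27.8, 15.8 and 5.95%. The contrast by length was present within every level group of the genes above 0. It was widest at the lowest level, with a median of 1.62 in the longest and -0.17 in the shortest transcripts, and narrowest at the highest level, with -0.17 in the longest and -0.41 in the shortest. GC content varied less with the difference, with medians of -0.21 in the lowest and 0.08 in the highest of 5 groups.

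**Figure D4:**
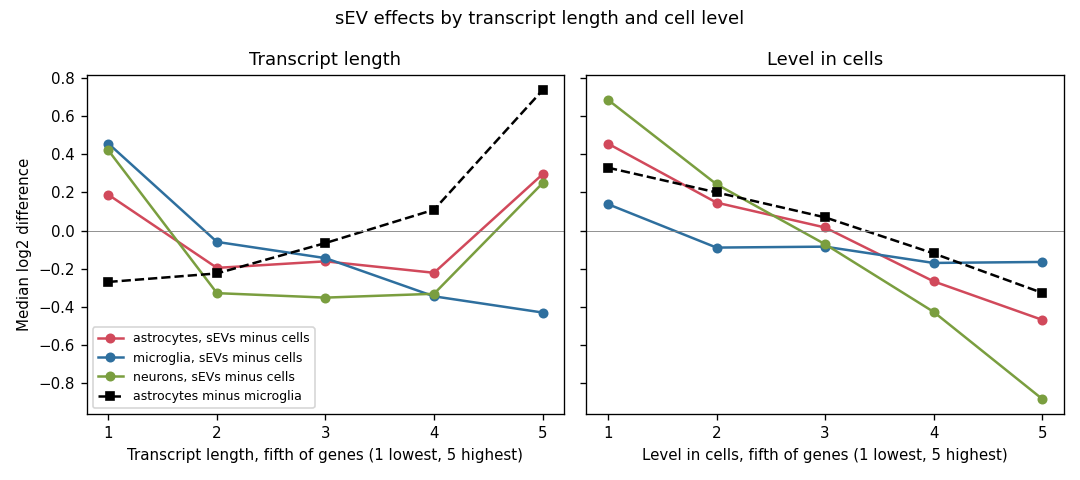
Median log2 difference between sEVs and cells in astrocytes, microglia and neurons (solid lines) and astrocytes minus microglia (dashed), over 5 groups of transcript length (left) and of level in cells (right), for genes above 0 in all 6 sEV libraries. In the longest group astrocytes and neurons lie above 0 and microglia below it.

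Neuron libraries gave a further readout of the called genes, and their levels did not enter the difference. They shared its fit, filter and adjustment, and a fit of the 12 astrocyte and microglia libraries alone called 657 genes higher and 229 lower. For 462 of the genes called higher, above 0 in all 9 sEV libraries, the median sEV effect was 1.84 in astrocytes, -0.53 in microglia and 1.82 in neurons. Neurons had 322 of them called higher in sEVs and 22 lower, 69.7% and 4.76%. Of the 5859 genes compared here and above 0 in these libraries, whether called or not, neurons had 23.6% called higher and 23.1% lower, and of all genes tested 11.1% and 18.9%. For the 298 genes called lower the medians were -1.64 in astrocytes, 0.05 in microglia and -1.57 in neurons, and neurons had 27 called higher and 208 lower. The neuron effect was nearer to the astrocyte than to the microglia effect in 423 of the 462 higher genes (91.6%) and in 231 of the 298 lower ones (77.5%), against 67.5% of the 5859.

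The order was not the same for every gene. Usf3 had sEV effects of 6.48 in astrocytes, -0.33 in microglia and 4.54 in neurons, and Bach1 5.23 in astrocytes, -1.31 in microglia and 6.14 in neurons. Sparcl1 had -4.88 in astrocytes, 0.99 in microglia and -4.53 in neurons. Hivep2 lay between, with 3.97 in astrocytes, -5.03 in microglia and 1.24 in neurons. Neuron cultures held astrocyte markers at 123298 to 178062 in sEVs and 151580.3 to 164737 in cells, and the part of astrocyte RNA in the neuron values was not tested.

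**Figure D5:**
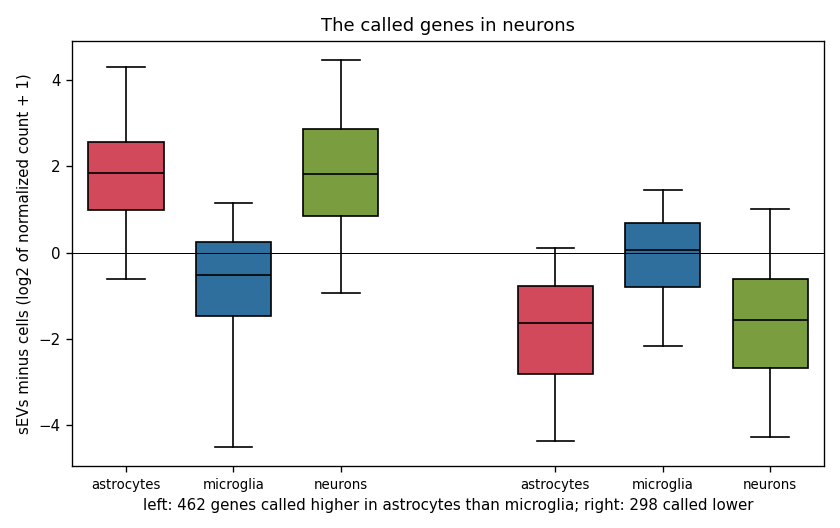
sEVs minus cells in astrocytes, microglia and neurons, in log2 units, for the 462 genes called higher (left) and the 298 called lower (right) in astrocytes relative to microglia. Boxes span the quartiles with the median as a line, and whiskers run from the 5th to the 95th percentile. The neuron boxes lie level with the astrocyte boxes in both groups.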

How the data were processed

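Poly(A) RNA of 18 libraries was measured, and the authors deposited 1 table of signal values, normalized counts per gene and library. The submitters' processing notes list Salmon 1.8.0, DESeq2 and the GRCm39 build, so the signal values were read as Salmon estimates scaled by DESeq2 size factors. Group means in the same table were not used, since the microglia sEV mean equalled that of its 3 replicates in only 1477 of 18481 genes (tolerance 0.01 plus 0.01%). Every library column belongs to a sample, and no count model was run.

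All 18 libraries entered 1 linear model of 6 group means on log2(value + 1), fitted by limma 3.58.1 under R 4.3.3 with a trended eBayes variance. Genes with at least 10 in at least 3 libraries were tested. A call needed an adjusted p below 0.05 (Benjamini-Hochberg over all of them). No covariate was used. Alternatives changed the pseudocount, filter, scaling, weights, block, cell minimum and libraries, 1 at a time. A fold on this scale understates changes of low genes.

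Blank symbols were filled from a table of gene names (121 of the 8826 genes; 3 stayed unnamed). Transcript length and GC content came from GENCODE vM21, another build, so no coordinates are given, and protein sequences were not used here. The members and gene lists were chosen with earlier results of these data known. Named were the 10 largest differences each way among called genes above 0 in all 6 sEV libraries without overlap of single-library differences, 5 each way by cell level among those listed at 0 in 1 sEV group, and up to 4 of each list by smallest p. Symbols of predicted or unnamed loci were left out (3 among the higher, 0 among the lower), and 1 gene that the rule named is not reported here. The depth per library is unknown.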

Additional observations from a re-analysis of the deposited data

Results flagged for a closer look

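The packaging difference is itself a comparison of 2 types under the same contrast of sEVs with cells, so each result named here differed between astrocytes and microglia in the limma test of that difference (adjusted p under 0.05). Over the 8826 genes 910 were higher and 321 lower. The 10 largest positive differences in log2 units were 8.999 for Hivep2, 8.58 for Enah, 7.85 for Camk1d, 7.48 for Tmem245, 7.30 for Pakap, 6.81 for Usf3, 6.68 for S1pr2, 6.54 for Bach1, 6.41 for Zfp871 and 6.32 for Tsc22d2. The 10 largest negative ones were -5.86 for Sparcl1, -5.76 for Gpm6a, -5.57 for Cep85, -5.44 for St3gal6, -5.44 for Creb3l1, -4.72 for Tmem165, -4.25 for Tmed5, -4.17 for Ptpre, -4.03 for Tmem186 and -4.03 for Arl6ip6.

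Genes listed at 0 in all sEV libraries of 1 type have a difference that depends on the pseudocount of 1 and is neither a fold nor a bound. On that scale Timp3 had 8.32, Ccn1 7.10, Acsbg1 6.11, Igfbp5 4.17 and Mlc1 3.90, all listed at 0 in microglia sEVs. Listed at 0 in astrocyte sEVs were Tlr3 with -7.04, Rnase4 with -6.19, Cd38 with -5.85 and Cd36 with -5.10.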

How the results depend on the processing

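Against 910 higher and 321 lower calls and a median of 0.42, lower calls numbered 774 at equal library totals (median -0.077), 523 under quantile normalization (median 0.13), 484 with the effect of each type centred on its median gene and 156 with library weights. The median of all genes tested was -0.12 at equal totals and -0.16 under quantile normalization, against 0.20 as deposited. A minimum of 500 in the cells of both types left 429 higher calls and a median of 0.051. Genes above 0 in all 6 sEV libraries had 463 higher calls and a median of -0.015. The cause of these shifts was not tested. Leaving out each of the 12 libraries in turn gave 717 to 1391 higher calls, 217 to 441 lower calls and medians of 0.15 to 0.56. The most higher calls came without microglia sEV replicate 3, and the lowest median came without microglia sEV replicate 1.

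sEV and cell libraries of the same replicate number had correlations of deviations of -0.13 to 0.07 in astrocytes and 0.04 to 0.12 in microglia. Libraries of different numbers had -0.12 to 0.13 in astrocytes and -0.11 to 0.05 in microglia. With 3 libraries per group these values cannot settle whether the numbers pair the samples. A fit with the replicate number as a block within each type called 714 genes higher and 183 lower, 874 of them also called without the block. Of the 122 named genes that were called, 69 kept the call in every alternative and 0 changed sign. Library weights ended 35 of these calls, the block 21, the fit of the 12 libraries alone 20 and quantile normalization 17. The depth is unknown, so a 0 is not read as absence.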
